A study of Homo sapiens with 9 samples.

Results

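The 10 genes described here are hypoxia response genes that act outside glycolysis: VEGFA, ADM, CA9, SLC2A1, PDK1, BNIP3, EGLN3, P4HA1, NDRG1 and ANKRD37. They are genes known to respond to low oxygen and were picked by name with earlier results of these data in view, so their counts against all genes are descriptions. Each name has 1 row among the 58735 genes of the deposited tables, so no row had to be chosen by its level. Of the 10, 8 had a mean of at least 1 FPKM (fragment counts scaled to the gene's length and to the size of the library) and entered the tests with 11185 other genes, and CA9 and EGLN3 did not. The RNA came from the human pancreatic cancer line PaTu 8988t, cultured in DMEM with serum and antibiotics. The cells met 1 of 3 kinds of extracellular matrix, with 3 libraries for each kind. The control group is labelled Ctrl ECM, the wild-type group CPXM2WT OE ECM and the mutant group CPXM2R213A OE ECM. The groups thus share the cells, the medium and the use of a matrix, and by label differ in the CPXM2 of that matrix. Any other difference between the matrices was not measured here. CPXM2 is a secreted carboxypeptidase-like protein with a discoidin domain, and R213A is a mutant form of it. The labels give no oxygen level and no time on the matrix. Nor do they say that replicates were cultured apart, so the spread behind each p-value may be technical.

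Cells sense oxygen through prolyl hydroxylases that mark the alpha subunits of the hypoxia-inducible factors (HIF) for breakdown by the VHL ubiquitin ligase. When oxygen is short the alpha subunit persists, pairs with ARNT and raises genes for blood vessel growth, glucose uptake, control of mitochondria, pH control and collagen modification. Pancreatic adenocarcinoma is known as a poorly perfused tumour, in which these genes are widely used as a read-out of low oxygen, although stress factors such as ATF4 and growth signals also act on several of them.

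HIF binds the core letters ACGTG or GCGTG on either strand, and some short promoter stretches that hold them are printed below. RefSeq promoter windows (GRCh38.p14) were matched by symbol for 8 of the 10 genes, all but VEGFA and NDRG1 (PDK1 has 2 windows), and the 250 bases before the start were searched for both forms on both strands. ACGTG was found for CA9, BNIP3, PDK1, P4HA1 and ANKRD37 (5 of 8 genes), against 18.5% of all 35116 windows. GCGTG was found for ADM and BNIP3 (2 of 8 genes), against 32.2% of all windows. Each stretch runs 5′ to 3′ on the gene's own strand, positions count back from the RefSeq start, and the capitals mark the match. A match is a description of letters and not a measured binding site.
CA9, position -18, plus strand, chr9:35673898-35673926: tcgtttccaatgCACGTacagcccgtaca
BNIP3, position -133, minus strand, chr10:131982040-131982068: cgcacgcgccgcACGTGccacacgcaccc
PDK1, position -17, plus strand, chr2:172556061-172556089: cctgctgcccgcCACGTccctcacgtacc
P4HA1, position -86, minus strand, chr10:73096936-73096964: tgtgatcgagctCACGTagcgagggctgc
ANKRD37, position -161, plus strand, chr4:185396668-185396696: gcgccgggctccACGTGccagtgtttgtg
ANKRD37, position -143, plus strand, chr4:185396686-185396714: cagtgtttgtgtACGTGcggccgtggcgg
ADM, position -101, plus strand, chr11:10304960-10304988: gagcaggagcgcGCGTGgctgaggaaaga
BNIP3 holds ACGTG and GCGTG close together, with 6 matches in all: 4 separate ones of GCGTG, and 2 of ACGTG that overlap, since CACGTG reads as ACGTG on both strands. ANKRD37 holds 3 matches, of which 2 are such an overlapping pair. PDK1 holds a second ACGTG match nearer to the start, in the same 1 of its 2 windows. SLC2A1 and EGLN3 hold neither form in these windows. All the stretches above except that of BNIP3 lie inside the interval that the deposited table lists for the gene, whose start is farther upstream than the RefSeq start.

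The libraries were deposited in 2 tables, which cross the matrix groups and stand apart in level. One table has 4 libraries, which are control 1, wild type 1 and R213A 1 and 3. The other has the remaining 5, which are R213A 2 with replicates 2 and 3 of the control and wild-type groups. Recovered totals ran from 15951927 to 18312806 reads. Libraries of different tables differed at least 2-fold, on the log2(FPKM + 1) scale, in 1663 to 5434 of the 11193 genes tested, and those within the 4-library table in 387 to 2316. Within the 5-library table control 2 differed so in 376 to 416 genes from the others, which differed from each other in 41 to 66. Transcripts of the mitochondrial genome were lower in control 2 as well, at a summed 12563 FPKM against 16393 to 19943 in the other 4 libraries of its table. Their share of reads was closer, at 1.87% in control 2 and 1.97% to 2.29% in those 4. The markers of the labelled cell type were mixed: KRT18, KRT8 and VIM were at 81.0 FPKM or more in every library, but KRT7, KRT19 and CDH1 reached at most 0.468, 0.0717 and 0.136 FPKM. Of 10 fibroblast markers 0, and of 9 endothelial markers 1, had a mean of at least 1 FPKM. In bulk RNA, fewer cells expressing a gene and less RNA per cell cannot be told apart.

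VEGFA encodes the main growth factor for blood vessels and is the textbook HIF target (ENSG00000112715, hg38 chromosome 6, 43770184 to 43786487, plus strand). Its level was 1.45, 5.02 and 10.7 FPKM in control 1, 2 and 3. On wild-type matrix it was 3.54, 10.3 and 11.2 FPKM, and on R213A matrix 1.23, 10.2 and 3.05 FPKM, in libraries 1, 2 and 3. All 5 libraries of the 5-library table lay above all 4 of the other, and the groups overlapped. Inside the 4-library table wild type 1 and R213A 3 were high and control 1 and R213A 1 low, with wild type 1 at 2.45 times control 1. Inside the 5-library table control 2 was the low library, and the other 4 stood at 10.2 to 11.2 FPKM whatever their matrix.

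ADM encodes adrenomedullin, a secreted peptide that relaxes and protects vessels (ENSG00000148926, chromosome 11, 10304680 to 10307397, plus strand). It varied most of all 8 genes and in a pattern of its own. The values were 88.3, 38.1 and 35.9 FPKM in control 1, 2 and 3, then 6.09, 38.3 and 42.0 FPKM on wild-type matrix and 87.2, 37.9 and 24.6 FPKM on R213A matrix. The 5-library table was nearly flat, from 35.9 to 42.0 FPKM with control 2 among the rest. The 4-library table held both the highest and the lowest values: ADM was 14.5-fold lower in wild type 1 than in control 1, and 3.55-fold lower in R213A 3 than in R213A 1, which share a matrix. ADM had 320 reads in wild type 1 and 4502 in control 1.

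SLC2A1 encodes GLUT1, the transporter that brings glucose into most cells (ENSG00000117394, chromosome 1, 42925375 to 42959176, minus strand). In libraries 1, 2 and 3 it was at 47.4, 50.5 and 88.1 FPKM on control matrix, at 26.2, 85.4 and 92.1 FPKM on wild-type matrix and at 37.9, 86.9 and 39.4 FPKM on R213A matrix. Wild type 1 was the lowest of the 9 libraries, and control 2 was closer to control 1 than to control 3. The groups overlapped for this gene and for each of those that follow.

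PDK1 encodes a kinase that switches off pyruvate dehydrogenase and so keeps pyruvate out of the mitochondrial cycle (ENSG00000152256, chromosome 2, 172555373 to 172608669, plus strand). Its level was low, at 0.588, 2.39 and 3.55 FPKM on control matrix, at 0.601, 3.38 and 3.14 FPKM on wild-type matrix and at 0.461, 2.91 and 0.800 FPKM on R213A matrix. The 4-library table stayed at or below 0.800 FPKM and the 5-library table at or above 2.39.

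BNIP3 encodes a protein of the outer mitochondrial membrane that marks mitochondria for removal by autophagy (ENSG00000176171, chromosome 10, 131966455 to 131982013, minus strand). It was at 6.37, 12.5 and 24.5 FPKM on control matrix, at 6.27, 22.8 and 24.9 FPKM on wild-type matrix and at 6.30, 24.2 and 6.65 FPKM on R213A matrix. Within the 4-library table BNIP3 hardly varied, from 6.27 to 6.65 FPKM, in the same libraries in which ADM varied 14.5-fold. Control 2 lay between the tables. Processed copies of BNIP3 elsewhere in the genome reached at most 4.21 FPKM (BNIP3P17), so its reads may be shared with them to a small extent.

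P4HA1 encodes the catalytic subunit of the enzyme that hydroxylates proline in collagen, which the collagen triple helix needs (ENSG00000122884, chromosome 10, 73007217 to 73096974, minus strand). It was at 18.8, 84.1 and 115 FPKM on control matrix, at 21.4, 114 and 114 FPKM on wild-type matrix and at 16.4, 113 and 18.9 FPKM on R213A matrix. The 4 libraries other than control 2 in the 5-library table lay within 1.01-fold of each other. The lowest of these 4 was 5.29 times the highest of the 4-library table, the widest gap among the 10 genes. The coefficient of variation of P4HA1 over the 4, 0.583%, was below the 1.25% that counting reads alone would give. Each other response gene tested lay above its own counting value, from NDRG1 (10.8% against 1.04%) to ANKRD37 (7.16% against 6.66%). Over 13878 to 13938 genes, pairs of these 4 libraries varied 2.67 to 5.45 times as much as counting alone would give (chi-square per degree of freedom).

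NDRG1 encodes a cytoplasmic protein induced by hypoxia, stress and differentiation (ENSG00000104419, chromosome 8, 133237171 to 133302022, minus strand). It was at 11.5, 32.7 and 54.7 FPKM on control matrix, at 30.2, 47.9 and 47.1 FPKM on wild-type matrix and at 12.4, 58.8 and 8.36 FPKM on R213A matrix. Wild type 1 stood 2.63 times above control 1, while wild type 2 and 3 were below control 3. This is the opposite direction from ADM in the same pair of libraries.

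ANKRD37 encodes a small ankyrin repeat protein that is used as a marker of HIF activity (ENSG00000186352, chromosome 4, 185396021 to 185400628, plus strand). It was at 1.30, 1.46 and 5.15 FPKM on control matrix, at 1.74, 4.34 and 4.93 FPKM on wild-type matrix and at 1.94, 4.75 and 1.41 FPKM on R213A matrix. Control 2 was at the level of the 4-library table, so the tables overlapped for this gene. ANKRD37 overlaps UFSP2 on the opposite strand, and the strand setting of the counting is not given in the sources used here. UFSP2 was at 28.95 FPKM in control 2 and 20.3 to 23.5 FPKM in the other 4 libraries of the table, the reverse of ANKRD37.

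The other 2 genes were close to silent. CA9, a membrane enzyme that controls pH outside hypoxic tumour cells (ENSG00000107159, chromosome 9, 35673856 to 35681159, plus strand), had 1 read in R213A 1 and 0 reads in the other 8 libraries. A count of 0 allows up to 3 reads, which is 0.0929 to 0.109 FPKM in those 8 libraries, for counting error only. EGLN3, a HIF prolyl hydroxylase that HIF itself induces (ENSG00000129521, chromosome 14, 33924231 to 34462774, minus strand), had 7 to 23 reads per library, or 0.0579 to 0.179 FPKM. Reads this few could show only a large difference between matrices, and neither gene entered the tests. EGLN3's listed interval also contains SPTSSA on the same strand.

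**Figure D1:**
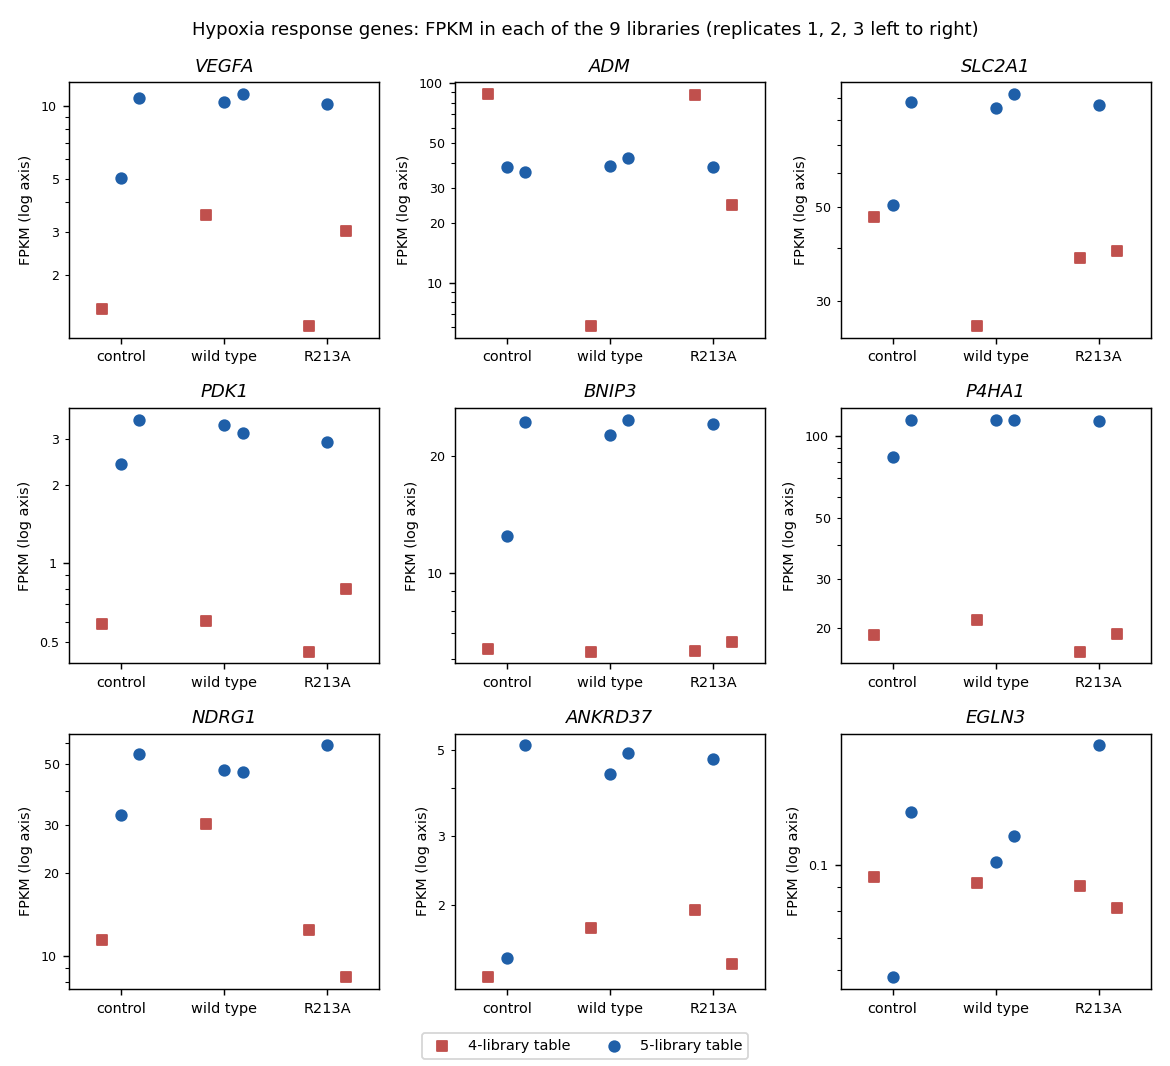
FPKM of 9 of the 10 genes (log axes) in the 3 groups, replicates 1 to 3 from left to right, with red squares for the 4-library table and blue circles for the 5-library table; each point is 1 library, and CA9 is not drawn because it had 1 read in all. The blue points lie above the red ones for VEGFA, SLC2A1, PDK1, BNIP3, P4HA1 and NDRG1, and control 2 is the lowest blue point in every panel but that of ADM.

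In FPKM averaged over the 9 libraries the order was P4HA1 (68.4), SLC2A1 (61.6), ADM (44.3), NDRG1 (33.7), BNIP3 (14.9), VEGFA (6.30), ANKRD37 (3.00), PDK1 (1.98), EGLN3 (0.104) and CA9 (0.00490). For the 8 genes tested, the spread over libraries was far wider than the steps between them. P4HA1 alone ran from 16.4 to 115 FPKM and ADM from 6.09 to 88.3 FPKM. EGLN3 and CA9 lay below those 8 genes in every library. In the 5-library table without control 2 no range met its neighbour: P4HA1 was at 113 to 115, SLC2A1 at 85.4 to 92.1, NDRG1 at 47.1 to 58.8, ADM at 35.9 to 42.0, BNIP3 at 22.8 to 24.9 and VEGFA at 10.2 to 11.2 FPKM. The order also rests on the listed gene lengths. VEGFA is listed with 14431 bases, 4.08 times its longest protein-coding transcript in GENCODE 29 (3535 bases), and on the latter length its mean would be 25.7 FPKM. NDRG1 (2.62 times) would be at 88.3 and lead the list, whereas PDK1 (1.05 times) would stay at 2.08.

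The comparison of wild-type with control matrix asks how these genes differed between the matrices so labelled. VEGFA, NDRG1, ANKRD37, BNIP3, P4HA1 and PDK1 had a positive log2 difference in the pooled fit, and ADM and SLC2A1 a negative one (2 of 8, against 53.7% of all genes), but 0 of the 8 passed the test. limma called 0% of the 11193 genes (0 genes, Benjamini-Hochberg adjusted p under 0.05), and at an unadjusted p under 0.05 it had 4.49% of all genes and 0 of the 8. VEGFA came closest, with means of 8.35 ± 4.18 FPKM on wild-type and 5.72 ± 4.67 FPKM on control matrix (SD, n = 3 each) and a log2(FPKM + 1) difference of 0.62 ± 0.29 (SE, limma adjusted p = 0.757). ADM had the largest difference, at -1.14 ± 0.70 (SE, limma adjusted p = 0.757, 95% interval -2.71 to 0.43). NDRG1 was at 0.55 and ANKRD37 at 0.44, with intervals that both held 0. Without wild type 1 ADM was at -0.04 and NDRG1 at 0.06, and without control 2 ANKRD37 was at 0.04 and VEGFA at 0.38. The median over these 8 genes was 0.24, against -0.03 over all genes.

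The comparison was also read within each table. In the 4-library table, where wild type 1 faces control 1 alone, the log2 difference was 0.89 for VEGFA, 1.32 for NDRG1, -3.66 for ADM and -0.83 for SLC2A1, but only -0.02 for BNIP3 and 0.01 for PDK1. In FPKM itself, with no 1 added, VEGFA and NDRG1 were at least 2-fold higher there (2 of 8 genes, against 11.7% of all genes) and ADM at least 2-fold lower (1 of 8, against 15.2%). In the 5-library table VEGFA differed by 0.49, BNIP3 by 0.42, SLC2A1 by 0.41 and ANKRD37 by 0.53, while ADM differed by 0.12. Without control 2 these became 0.01, -0.04, 0.01, -0.13 and 0.16. The difference between the tables in the response of ADM was 3.77 ± 0.85 on the log2 scale (SE, limma with a group by table term, adjusted p = 0.0778, chosen after seeing the data). That term called 125 of 11193 genes (1.12%) and 0 of the 8, and in it wild type 1 and control 1 stand alone and are assumed to vary like the other libraries. ATF4 targets stood higher in the same library: their summed level was 2108 FPKM in wild type 1 and 619 in control 1, with log2 differences whose median was 1.37 between those libraries and 0.01 within the 5-library table. Their part in the VEGFA, NDRG1 and ADM values was not tested.

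**Figure D2:**
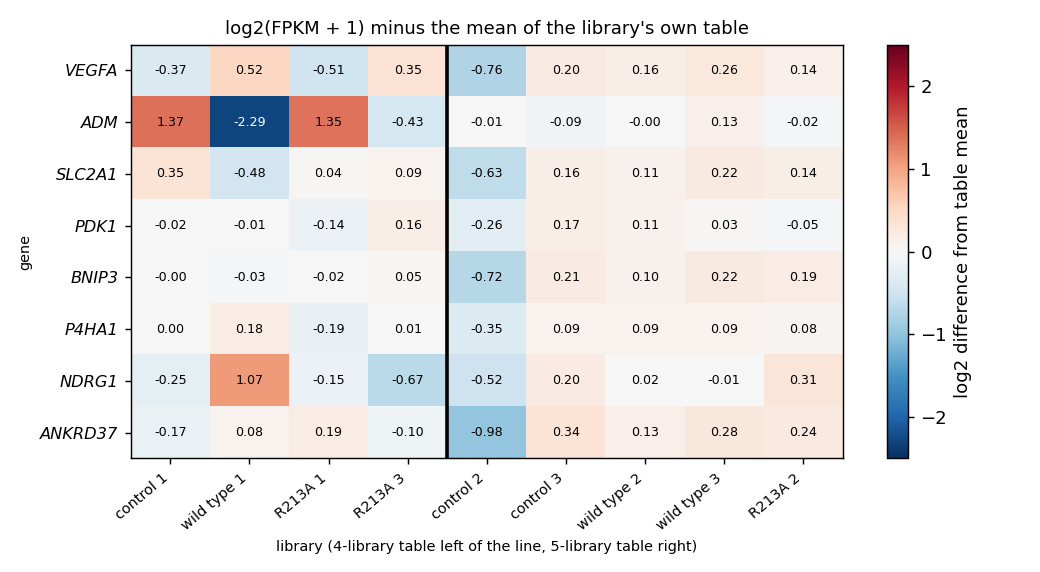
Each cell gives log2(FPKM + 1) of a gene (rows) in a library (columns) minus the mean of that library's own table, from blue (lower) to red (higher), with the 4-library table left of the line. ADM at -2.29 and NDRG1 at 1.07 in wild type 1, and the negative column of control 2 for every gene but ADM (-0.01), stand out.

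For R213A against control matrix none of the 8 genes passed the test either. The largest in the pooled fit were 0.40 ± 0.31 for ANKRD37 (SE, limma adjusted p = 0.690) and 0.30 ± 0.30 for VEGFA (SE, limma adjusted p = 0.717), and limma called 0% of the 11193 genes and 0 of the 8 (3.05% of all genes and 0 of the 8 at an unadjusted p under 0.05). The coefficient was below 0 for ADM and NDRG1 (2 of 8, against 51.9% of all genes). ADM was at -0.07, with a 95% interval of -1.71 to 1.56, which is wide enough to hold a 2-fold difference either way. The median over the 8 genes was 0.09, against -0.02 over all genes. The 4-library table holds 2 R213A libraries but 1 of each other group, so its mean FPKM also carries the gap between tables: P4HA1 averaged 49.4 FPKM on R213A and 72.5 on control matrix, yet differed by 0.04 when the difference was formed within tables. Within the 4-library table R213A 1 was at least 2-fold from control 1, again in FPKM itself, for 0 of the 8 genes (16.7% of all genes higher and 17.9% lower). R213A 3 was at least 2-fold above control 1 for VEGFA (1 of 8, against 4.32%) and below it for ADM (1 of 8, against 4.94%). The 2 R213A libraries themselves differed in the same genes: R213A 3 was 2.48-fold above R213A 1 in VEGFA (1 of 8 at least 2-fold higher, against 5.07%) and 3.55-fold below it in ADM (1 of 8, against 5.18%). In the 5-library table R213A 2 stood above the mean of the controls for ANKRD37 (0.56), NDRG1 (0.46), BNIP3 (0.44) and VEGFA (0.41), and without control 2 these values were -0.10, 0.10, -0.02 and -0.07.

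Wild-type against R213A matrix compares the matrices labelled with the 2 forms of CPXM2. limma called 0% of the 11193 genes and 0 of the 8, with 1.05% of all genes and 0 of the 8 at an unadjusted p under 0.05. ADM differed most, at -1.07 ± 0.73 (SE, limma adjusted p = 0.996), with means of 28.8 ± 19.8 and 49.9 ± 32.98 FPKM (SD, n = 3 each). ADM and SLC2A1 had coefficients below 0 (2 of 8, against 51.5% of all genes). NDRG1 was at 0.56 ± 0.37 (SE, limma adjusted p = 0.996). Wild type 1 carried both values: without it ADM was at 0.40 and NDRG1 at -0.10. In the 4-library table alone they were at -2.74 and 1.48, with wild type 1 as the lone library of its group. In the 5-library table, where wild type 2 and 3 face R213A 2, the 8 differences lay between -0.30 (NDRG1) and 0.12 (PDK1). The comparisons share libraries: both CPXM2 groups were set against the same 3 controls.

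**Figure D3:**
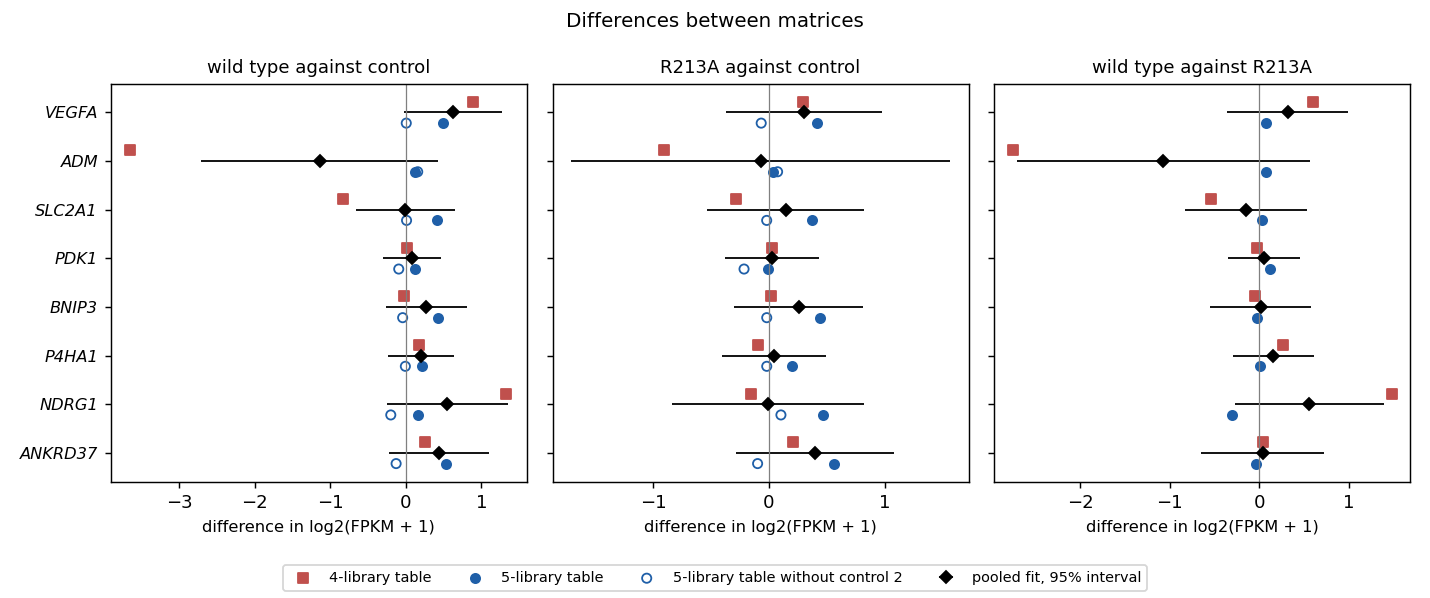
Difference in log2(FPKM + 1) of 8 genes for each comparison (panels): black diamonds are the fit over both tables with its 95% interval, red squares the 4-library table, filled blue circles the 5-library table and open circles that table without control 2. Every black interval crosses 0, and in the panels against control the open circles lie between -0.22 and 0.16.

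Control 2 stood below each of the other 4 libraries of its table for 7 of the 8 genes, against 37.1% of all genes, and above them for 0 of 8, against 43.7%. It was at least 1.5-fold below each for 4 of 8, against 8.59%. The 4 were ANKRD37, VEGFA, BNIP3 and SLC2A1: the lowest of the other libraries exceeded control 2 by 2.97, 2.03, 1.83 and 1.69 times. NDRG1 followed at 1.44 times, P4HA1 at 1.34 and PDK1 at 1.22. ADM was the exception as deposited, but quantile scaling and scaling by recovered reads put it below the other 4 as well. A count by recovered reads scaled to library totals gave 8 of 8 (6 of 8 at 1.5-fold), with 53.8% and 14.1% of all genes. Control 3, which shares the matrix and the table of control 2, was among the other 4, so this describes 1 library. Mitochondrial genome transcripts were lower in control 2 too, with 9 of 13 below each of the other 4. Their median log2 difference from the mean of those 4 was -0.71. Their part in the result was not tested.

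Other listed hypoxia targets outside glycolysis were split in control 2. Of 46 such genes 35 had a mean of at least 1 FPKM, which is what measured means for these lists. Of the 35, 25 were below each of the other 4 libraries and 10 above, against 37.1% and 43.7% of all genes. Of the 35, 11 were at least 1.5-fold below, against 8.59% of all genes: HILPDA, INSIG2, TMEM45A, AK4, CITED2, VLDLR, SLC16A3, CXCR4, FUT11, ZNF395 and KDM4B. HILPDA, INSIG2, TMEM45A, AK4 and BHLHE40 are named after their values were seen. HILPDA, which guards lipid droplets, was at 2.12 FPKM in control 2 and 6.39 to 7.08 in the others, and INSIG2, a sterol sensor, at 4.35 against 11.6 to 12.7. TMEM45A was at 5.46 against 13.5 to 14.4, and AK4, a mitochondrial adenylate kinase, at 6.04 against 14.2 to 16.9. On the other side BHLHE40, a repressor of the circadian clock, was at 467 FPKM against 117 to 124. HMOX1, which breaks down haem, was at 920 against 305 to 347. Glycolytic enzymes, 18 measured, had 12 below and 5 above the other 4 libraries, against the same 37.1% and 43.7%. LDHA and ENO1 were among the lower, while GAPDH, the most abundant of them, was at 1559 FPKM against 1218 to 1277.

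**Figure D4:**
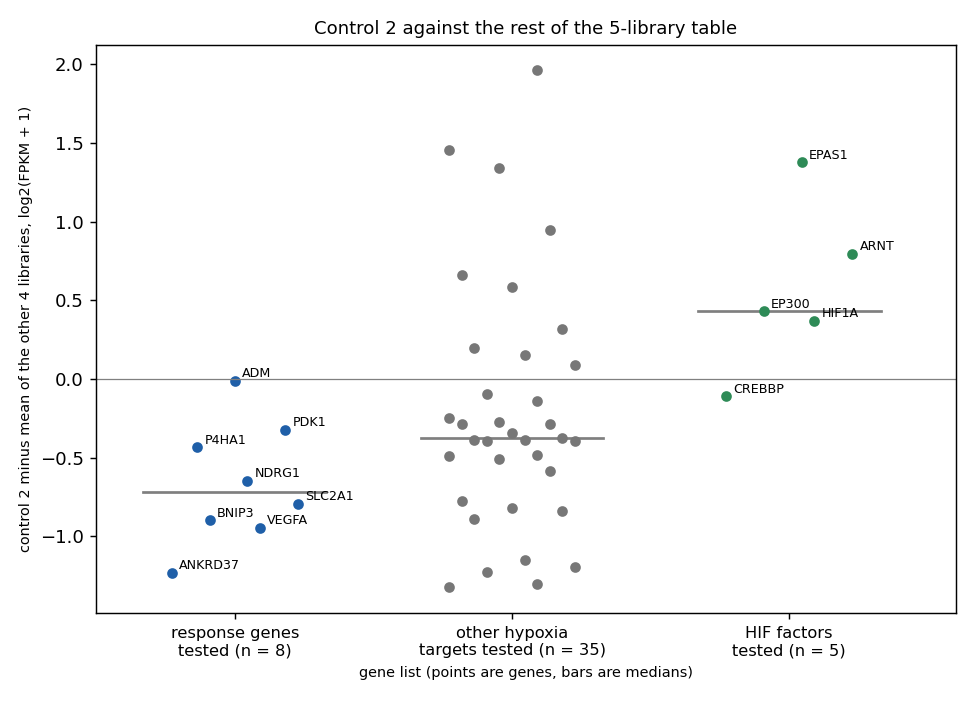
Control 2 minus the mean of the other 4 libraries of the 5-library table, in log2(FPKM + 1), for the 8 response genes tested, 35 other hypoxia targets and 5 HIF factors; points are genes and bars medians (-0.72, -0.37 and 0.43). The response genes lie at or below 0, the other targets fall on both sides, and 4 of 5 HIF factors lie above 0.

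Of the 5 measured HIF subunits and coactivators, 4 stood higher in control 2 than in the rest of its table, as deposited and under each of the 3 other scalings; CREBBP did not. HIF1A, the broadly expressed alpha subunit, was at 63.5 FPKM in control 2 and 47.8 to 50.4 in the other 4. EPAS1, a second alpha subunit, was at 9.28 against 2.85 to 3.04, and ARNT, their shared partner, at 18.6 against 9.71 to 10.8. EP300, a coactivator, was at 4.16 against 2.29 to 3.26, and such a place above the other 4 libraries was held by 43.7% of all genes. Among sensors EGLN1, the main HIF prolyl hydroxylase and itself a HIF target, was at 19.4 against 27.1 to 28.2, and VHL at 20.3 against 24.6 to 25.3. Of the 10 measured genes of oxygen sensing and HIF turnover 4 were below and 5 above. VHL is counted both here and among the other hypoxia targets.

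Against control matrix 5 of 5 HIF factors had a negative fitted difference on both CPXM2 matrices, under each scaling, against 53.7% (wild type) and 51.9% (R213A) of all genes, and 0 of 5 passed the test. In libraries 1, 2 and 3 HIF1A measured 27.3, 63.5 and 48.4 FPKM on control matrix, 10.5, 49.2 and 47.8 FPKM with wild-type CPXM2, and 9.50, 50.4 and 14.3 FPKM with R213A. Its log2 difference from control was -0.56 for wild type and -0.58 for R213A (limma adjusted p = 0.757 and 0.690). The medians of the 5 were -0.36 and -0.45, and in the 5-library table without control 2 they were -0.05 and 0.04. In the 4-library table, against control 1 alone, the medians were -0.40 and -0.72. For wild type HIF1A was at -1.30 there and EPAS1 at 0.55. The 10 genes of oxygen sensing had 6 higher and 4 lower in each of these 2 comparisons and 0 past the test, beside the same shares of all genes below 0. For R213A that split became 4 to 6 in a limma-voom fit of the recovered reads. The 35 other targets had 22 higher and 13 lower for wild type and 20 higher and 15 lower for R213A, with medians of 0.07 and 0.03 and 0 past the test; the reads-based fit put the second split at 17 to 18. DDIT4, an inhibitor of mTOR and a target of both HIF and ATF4, was at 135 FPKM in wild type 1, 1.48 in control 1, 3.15 in R213A 1 and 47.6 in R213A 3, which is the reverse of ADM in these 4 libraries.

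Partners and relatives of the 10 genes were at mixed levels. The adrenomedullin receptor chains CALCRL, RAMP1, RAMP2 and RAMP3 reached at most 0.845, 0.538, 0.0498 and 0 FPKM, while ADM2, a related peptide, was at 4.12 FPKM on average, with a difference of 3.25 between wild type 1 and control 1 on the log2 scale. Of 9 other VEGF ligands and receptors 1 was measured, VEGFB, at 56.5 FPKM on average. Among collagen prolyl hydroxylase subunits P4HB was at 67.0 to 153 FPKM and P4HA2 at 0.972 to 4.69 FPKM. Both stood higher in wild type 1 than in control 1, by 0.92 and 1.53 on the log2 scale, where P4HA1 differed by 0.17. PDK1's target complex was expressed, with PDHA1 at 27.9 and DLAT at 29.9 FPKM. Of the other carbonic anhydrases CA2 averaged 17.2 FPKM and CA12 had 0 reads in all libraries. BNIP3L, the closest relative of BNIP3, had its 4-library values at 6.57 to 10.2 FPKM and its 5-library values at 45.8 to 59.0. NDRG3 was level across all 9 libraries, at 20.6 to 24.9 FPKM.

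Among the 8 genes themselves, PDK1 and P4HA1 had the smallest root mean square difference over the 9 libraries, 0.10 between their log2 values after each table's mean was removed. They were also the genes that varied least, with a root mean square of 0.13 and 0.16 around those means. BNIP3 and ANKRD37 followed at 0.15, and ADM was farthest from the rest, at 1.36 from NDRG1 and 1.32 from VEGFA. By the same measure over the 9 libraries, the nearest other gene tested was EIF5 for VEGFA (0.05), ZNF790 for BNIP3 (0.04) and SUMF1 for PDK1 (0.05). It was TCEAL1 for P4HA1 (0.02), SAMHD1 for SLC2A1 (0.06) and SPHK2 for ANKRD37 (0.06). For NDRG1 it was NBR2 (0.17) and then P4HA2 (0.17). For ADM, whose own root mean square was 1.01, it was LINC03061 (0.29) and then PPME1 (0.37). The measure grows with a gene's own spread, which was 0.48 for NDRG1 and 0.41 for VEGFA, so it ranks neighbours of 1 gene and does not compare genes.

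All 5 libraries of the 5-library table exceeded all 4 of the other for 6 of the 8 genes, VEGFA, SLC2A1, PDK1, BNIP3, P4HA1 and NDRG1, against 30.3% of all genes, and lay below them for 0 of 8, against 23.7%. With median of ratios scaling it was 5 of 8 and by recovered reads scaled to library totals 4 of 8, against 27.7% and 26.1%. The tables may have been scaled separately and no source used here says what they mark, so this is a description of levels and not a comparison of conditions.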

How the data were processed

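The 10 genes and the gene lists were chosen with earlier results of these data known. The authors deposited FPKM values per gene, per the file headers, in 2 tables of 58735 Ensembl genes. The build hg38 and bcl2fastq are named per the submitters' processing notes, and for the aligner, counter, strand setting and annotation nothing is given in the sources used here. Per the labels' protocols, RNA was extracted with TRIzol and libraries were made with a stranded TruSeq mRNA kit. Genes were matched to the tables by the deposited name, and list genes by a current symbol, found for 58207 identifiers. FPKM times gene length gave whole reads for 100% of values above 0, within 0.01 reads.

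FPKM values are not counts, so log2(FPKM + 1) was tested in R 4.3.3 with limma 3.58.1. Genes whose mean reached 1 FPKM, 11193 in all, were kept. A fold change on this scale understates that of low genes. One fit with a trend held group and table, with 5 residual degrees of freedom. P-values were adjusted by Benjamini-Hochberg over all genes tested, with a threshold of 0.05. Differences are quoted from this fit unless a table is named. In simulated data for wild type against control (11193 genes, 200 changed), 35% of genes changed by 1 on the log2 scale were recovered, 91.5% at 2 and 99.5% at 3. False calls numbered 2, 13 and 15. The simulated noise was independent, with 1 spread per gene in every library, and all wild-type libraries moved alike. Single outlying libraries were thus not modelled, and recovery in these data may differ. An exact test of 3 against 3 libraries cannot go below 0.1, so none was used.

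Besides the 10 genes, the naming rule took HIF1A, EPAS1, ARNT, EGLN1 and VHL, up to 3 genes of highest mean FPKM per list (all for lists of up to 7 genes), and the 2 nearest genes per member. DDIT4, HILPDA, INSIG2, TMEM45A, AK4 and others named in the text outside this rule were chosen after their values were seen. Alternatives changed the pseudocount, filter, scaling, table term, replicate block, trend, gene length correction, count model and the libraries used. One gene that the rule would name is not reported here.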

Additional observations from a re-analysis of the deposited data

How the results depend on the processing

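The 8 genes' differences were refitted under 23 alternatives, which gave 546 values: 85 had another sign than reported, 30 moved by more than the spread, and 3 passed the threshold. All 3 came from the 4-library table alone, where limma called 775 genes for wild type and 184 for R213A against control, and 327 between the CPXM2 forms, with 1, 0 and 2 of the 8 among them. ADM was at -3.66 (adjusted p = 1.03e-07) against control and -2.74 (adjusted p = 1.64e-05), against R213A, and NDRG1 against R213A at 1.48 (adjusted p = 0.0471). There control 1 and wild type 1 are assumed to vary like R213A 1 and 3. Over the other alternatives 0 of the 8 passed. Without a filter limma called 1 gene against control for each CPXM2 matrix, and in the 5-library table without control 2 it called 14 (wild type) and 16 (R213A), with a spread from wild type 2 and 3 alone. The median over the 8 genes was -0.27 for R213A against control and 0.53 for wild type against R213A with no table term, and 0.39 for R213A against control in the 5-library table alone. Leaving out 1 library in turn gave medians of 0.00461 (without control 2) to 0.39 for wild type against control, -0.07 (without control 2) to 0.34 for R213A against control and 0.01 to 0.12 for wild type against R213A. A limma-voom fit of the recovered reads called 0 genes in each comparison (423, 214 and 101 at an unadjusted p under 0.05) and shifted the median of all genes by 0.12 in wild type against R213A.

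Replicate numbers are shared by the groups, but nothing says that they pair libraries. Of 9 pairs of the same number 7 correlated over 0.1 in their deviations, from -0.70 to 0.84, and 6 of 9 libraries correlated best with their own number. All 7 lie within 1 table, where pairs of different numbers reached 0.31 to 0.81, and the 2 across tables were at -0.65 and -0.70, so the pattern follows the table. With the replicate block limma called 0 genes in each comparison, and the medians of the 8 were 0.24, 0.26 and -0.01.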
